A study of Mus musculus with 24 samples.

Results

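Brain endothelial and barrier genes were described here as a list of 40 genes that mark the cells lining cerebral blood vessels, join them to each other or carry solutes across them. They were chosen by symbol, with earlier results of these data known. All 40 were present among the 24062 genes of the count table, and all 40 were among the 16313 genes that passed the filter on low counts and were tested. The counts come from bulk RNA of dissected mouse hippocampus, from mice on a C57BL/6 background in a design that crosses genotype with paired-fighting social defeat. WT control mice (7 libraries) and WT stress mice (6 libraries) carry the receptor for interleukin-1, IL-1R1. KO control mice (6 libraries) and KO stress mice (5 libraries) are labelled IL-1R1 knockout, which the series design places in neurons. The sources used here give no Cre driver, age, sex or time after defeat. Endothelial cells of the KO mice would keep the receptor under that design, which these libraries cannot check.

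The walls of brain capillaries form the blood-brain barrier. Their endothelial cells are sealed by tight junctions, carry little traffic in vesicles, and move glucose, amino acids, lipids and hormones through dedicated transporters while pumps return many drugs and toxins to the blood. Wnt signals from neural cells, and the SOX, FOX and ETS families of transcription factors in the endothelium, maintain this state. Receptors for VEGF, angiopoietins and TGF-beta family ligands govern growth and stability of the vessels.

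The depth of a library was 25711872 to 35148198 counts, with ranges that overlapped between all 4 groups. Levels are given as CPM, a gene's share of the counts on scaled library sizes. The labels do not say that each library is a separate mouse, so p-values measure the spread between these samples only. The libraries fall into 2 classes by their level of Rn45s, a precursor of ribosomal RNA. Class 1 holds 11 libraries at 24238 to 50453 CPM of Rn45s, all with low replicate numbers, and class 2 holds 13 libraries at 4107 to 8786 CPM. Each group has libraries of both classes, in numbers from 2 to 4. The classes were found in the counts and are not named in the labels. Il1r1 itself stood at 1.99 to 5.65 CPM in WT control libraries, 3.36 to 7.31 CPM in WT stress libraries, 2.10 to 5.46 CPM in KO control libraries and 3.77 to 7.93 in KO stress libraries. The KO and WT controls differed by 0.04 ± 0.26 (SE, log2) in it, with an adjusted p of 0.9999. Whole-tissue levels of the gene do not test a deletion limited to neurons, so the genotypes rest on the labels.

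All 40 members were detected in every library, the lowest count being 24, and the defining junction genes Cldn5, Cdh5 and Pecam1 stood above 11 CPM throughout. Per kb of annotated exon, Bsg was highest, at 369 CPM per kb averaged over the 24 libraries. It encodes basigin, a partner that brings monocarboxylate transporters to the membrane, and is expressed by many cell types besides endothelium. On the same per-length scale the glucose transporter gene Slc2a1 (49.3), the tight junction gene Cldn5 (45.8), the endothelial surface gene Ly6c1 (36.7), Itm2a (28.4) and the amino acid transporter gene Slc7a5 (27.6) came next. Their ranges over libraries overlapped from 1 gene to the next: Slc2a1 ran from 29.2 to 70.0 CPM per kb and Cldn5 from 27.4 to 60.1. Car4, a carbonic anhydrase of the capillary surface, had 25.2 CPM per kb, and Mfsd2a, a carrier of lysophosphatidylcholine lipids, 14.3. The VEGF receptor gene Kdr (1.12) and the transcription factor gene Sox7 (0.549) were the lowest. The remaining members lay between 1.21 and 11.8 CPM per kb. In bulk tissue, more endothelial cells and more RNA per endothelial cell cannot be told apart.

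Across the 24 libraries, the coefficient of variation of the members ran from 7.75% to 54.7%. Abcg2, a drug efflux pump, was the steadiest, at 12.3 to 16.8 CPM. Slc38a5, a transporter of glutamine and other neutral amino acids, varied most, followed by Acer2, an alkaline ceramidase (47.3%), and Mfsd2a (33.5%).

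Promoter sequence from the RefSeq table (GRCm38.p6) was found for 25 of the 40 members. It is shown for 3 members whose levels carry the results below. Acer2 was the member of smallest p for stress averaged over genotypes. Eng had stress and control libraries that did not overlap in WT mice. Slc2a1 was lower on average in class 2, with overlap between the classes. Each stretch ends just before the first annotated exon base on the plus strand, and capitals mark a match to a searched motif.
Acer2, chr4:86874164-86874395: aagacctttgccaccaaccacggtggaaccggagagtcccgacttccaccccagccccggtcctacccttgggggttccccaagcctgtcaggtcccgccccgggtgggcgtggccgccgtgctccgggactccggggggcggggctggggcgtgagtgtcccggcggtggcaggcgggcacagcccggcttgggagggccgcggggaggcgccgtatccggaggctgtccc
Eng, chr2:32646345-32646594: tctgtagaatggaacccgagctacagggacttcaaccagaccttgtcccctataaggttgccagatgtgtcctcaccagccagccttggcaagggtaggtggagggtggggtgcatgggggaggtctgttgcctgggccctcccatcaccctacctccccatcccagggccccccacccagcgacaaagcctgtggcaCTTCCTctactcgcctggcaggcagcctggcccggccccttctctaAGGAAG
Slc2a1, chr4:119108495-119108710: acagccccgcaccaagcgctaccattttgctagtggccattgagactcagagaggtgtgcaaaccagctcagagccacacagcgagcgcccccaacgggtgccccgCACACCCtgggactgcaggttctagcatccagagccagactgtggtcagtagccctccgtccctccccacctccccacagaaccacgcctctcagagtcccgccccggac

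The search covered 5 core motifs on both strands of the 250 bases upstream of each RefSeq start. The ETS core AGGAAG was in 11 of the 25 member windows (44.0%) and in 29.5% of all 32851 windows. Eng held it 2 times, starting 52 and 6 bases before the start. The KLF motif GGGTGTG was in 2 member windows (8.0%, against 6.93% of all), Slc2a1 and Tie1. TCF/LEF CTTTGA was in 4 (16.0% against 13.8%), SOX ACAATG in 1 (4.0% against 10.7%) and FOX TGTTTAC in 1 (4.0% against 3.17%). The window with the FOX match was that of Abcb1a, which also counts among the ETS and TCF/LEF windows. That window lay 92986 bases from the start of Abcb1a in the GENCODE gene models. Acer2 held none of these letters in its window. These matches describe sequence and were not tested.

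Averaged over the 2 genotypes, 3 of the 40 genes rose under stress and none fell. They were Slc38a5, Tgm2, a transglutaminase that cross-links proteins, and Acer2. Over all tested genes 35 passed, 34 of them higher, so the share called was 0.215% in all and 0.208% for higher genes. Calls are from edgeR's quasi-likelihood test with p-values adjusted over all tested genes by Benjamini-Hochberg, and each log2 fold change is given with its standard error (SE). Of the 40 members, 37 lay above 0 with a median log2 fold change of 0.18, while the median over all tested genes was 0.00. At an unadjusted p under 0.05 there were 19 members, while 6.17% of all genes met that mark. Since the members were chosen with earlier results known, these shares describe the list and do not test it.

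Acer2 (chr4:86874396-86934822, plus strand, GRCm38) was at 4.42 to 11.2 CPM in WT controls, with a median of 6.52, and at 10.3 to 18.6 in WT stress, with a median of 13.8. In KO mice it was at 6.25 to 10.7 CPM in controls, with a median of 6.91, and at 11.5, 9.58, 9.63, 14.9 and 25.7 in the 5 stress libraries. In both genotypes the upper control libraries reached into the stress range, and KO stress replicate 5 stood highest. Its average stress effect was 0.95 ± 0.17 (SE) on the log2 scale, with an adjusted p of 0.00650.

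Tgm2 (chr2:158116402-158146436, minus strand) ran from 13.5 to 23.9 CPM in WT controls, with a median of 19.8, and from 22.6 to 41.5 in WT stress, with a median of 30.1. KO controls ran from 16.0 to 21.9 CPM, with a median of 19.1, and the KO stress libraries had 20.5, 25.9, 21.2, 30.9 and 41.5. Only WT control replicate 3, at 23.9 CPM, exceeded the lowest WT stress library. The average stress effect was 0.65 ± 0.12 (SE), with an adjusted p of 0.0113. Up to 13.7% of its exon bases overlap a gene on the other strand, and the use of strand in counting is not given in the sources used here.

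Slc38a5 (chrX:8271133-8280179, plus strand) ran from 1.90 to 6.69 CPM in WT controls, with a median of 4.13, and from 6.31 to 12.9 in WT stress, with a median of 9.88. KO controls had 1.99 to 5.46 CPM, with a median of 4.24, and the KO stress libraries 4.92, 3.49, 8.39, 11.6 and 11.8. The low values within each group were those of class 1, in controls and stress libraries alike. The average stress effect was 1.10 ± 0.22 (SE), with an adjusted p of 0.0256. This call ended without any 1 of 9 libraries: replicate 2 or 3 of KO control, 3, 4 or 5 of KO stress, 1 of WT control, or 3, 4 or 5 of WT stress, the adjusted p then reaching 0.0884 at most. Acer2 and Tgm2 kept their calls whichever of the 24 libraries was left out. In class 1 alone, with 4 stress libraries, none of the 3 passed and the average effects were 0.40 (Acer2), 0.21 (Tgm2) and 0.80 (Slc38a5), all at an adjusted p of 0.784. In class 2 alone they were 1.41, 0.96 and 1.06, and all 3 passed.

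Eng, a co-receptor for TGF-beta family ligands, and Podxl, a sialomucin of the vessel lumen, came next in the average and did not pass, with adjusted p of 0.0537 and 0.0632. With library class as a term in the fit, 5 members rose on average: Slc38a5 (0.91, adjusted p 0.00117), Eng (0.32, 0.00833), Acer2 (0.98, 0.0120), Tgm2 (0.65, 0.0274) and Ly6c1 (0.43, 0.0433). In all, 3 stress libraries carried high levels of thalamic and habenular genes, with sums over 12 such genes of 762 CPM in WT stress replicate 5, 802 in KO stress replicate 3 and 603 in KO stress replicate 5. The other stress libraries and all controls reached at most 563. Without those 3 libraries Acer2 still rose (0.78, adjusted p 0.0390), while Tgm2 (0.54, 0.0566) and Slc38a5 (0.92, 0.480) no longer passed.

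**Figure D1:**
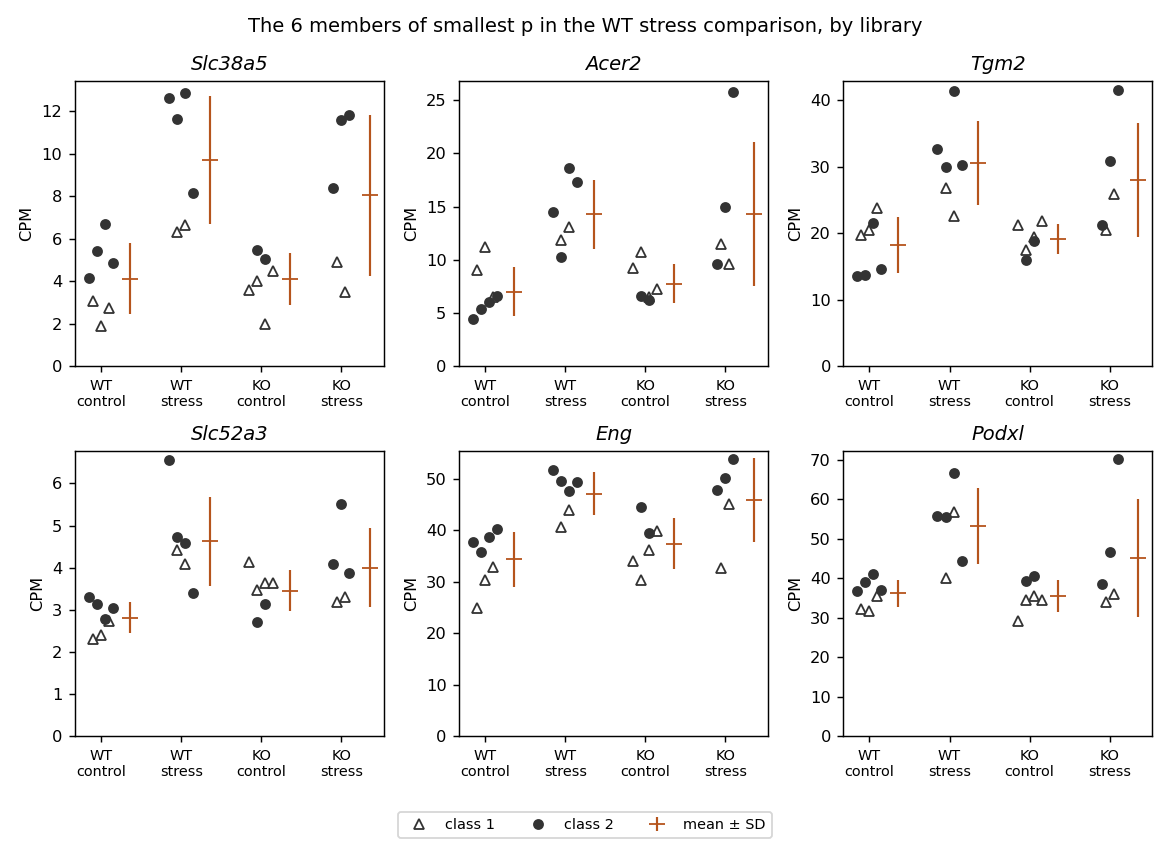
Level in CPM of Slc52a3, Tgm2, Acer2, Slc38a5, Eng and Podxl in each of the 24 libraries, by group, with library class shown by the marker and the group mean ± SD by the bar. WT stress libraries lie above all WT controls for Slc52a3 and Eng, and the other 4 genes overlap.

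Within WT mice alone, none of the 40 members passed by edgeR, while 8 did by DESeq2 (Slc52a3, Tgm2, Acer2, Slc38a5, Eng, Podxl, Esam and Ly6c1) and 2 by limma voom (Tgm2 and Acer2), all higher. With library class as a term, 3 passed by edgeR: Slc38a5, Eng and Ly6c1. The edgeR test called 22 genes in all, a share of 0.135%, all higher. At an unadjusted p under 0.05 there were 16 members, beside 4.41% of all genes, and 37 of the 40 lay above 0 with a median of 0.20 (all genes: -0.00). The 12 members of smallest p, all above 0, came from every role, and their adjusted p ran from 0.0645 to 0.761. The WT and KO stress effects share no library.

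Slc52a3, a riboflavin transporter, had the smallest p. Its level was 2.31 to 3.31 CPM in WT controls, with a median of 2.77, and 3.41 to 6.56 in WT stress, with a median of 4.50. The groups did not overlap. The log2 fold change was 0.72 ± 0.15 (SE), with an adjusted p of 0.0645. In KO mice the controls, at 2.71 to 4.13 CPM, spanned 3.19, 3.31, 4.09 and 3.88 of the stress libraries, and 1 stress library stood above them at 5.52. The KO change was 0.21 ± 0.17 (SE), and 0.063 without KO stress replicate 4.

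Eng was at 24.8 to 40.2 CPM in WT controls, with a median of 35.8, and at 40.7 to 51.7 in WT stress, with a median of 48.5. It too did not overlap, by a margin of under 1 CPM, and the change of 0.46 ± 0.11 (SE) had an adjusted p of 0.161. KO controls had 30.3 to 44.4 CPM, and the KO stress libraries 32.6, 45.0, 47.8, 50.1 and 53.8. Slc52a3 and Eng were the only 2 of the 40 members whose WT stress libraries all exceeded all WT controls, and none showed the reverse. Over all tested genes 0.221% were higher without overlap and 0.0613% lower. In KO mice no member was free of overlap, where 0.233% of all genes were higher and 0.0674% lower.

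Among the junction and adhesion genes, Esam, an adhesion molecule of endothelial contacts, had a WT log2 fold change of 0.32 ± 0.08 (SE), and Lsr, a protein of tricellular contacts, 0.47 ± 0.12. Their KO values were 0.12 and 0.13. Cldn5 had 0.25 ± 0.14 in WT and 0.06 ± 0.15 in KO mice. Cldn5 ranged from 38.8 to 82.0 CPM in WT controls and from 68.2 to 85.1 in WT stress, so the groups overlapped over most of the stress range. The occludin gene Ocln (0.02 in WT, 0.32 in KO), the scaffold gene Tjp1 (-0.04 and 0.08), the VE-cadherin gene Cdh5 (0.16 and 0.29) and Pecam1 (0.17 and 0.11) did not pass in either genotype. More than 43% of the exon bases of Lsr lie under a gene on the other strand, so its count is uncertain.

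Of the transporters, Slc38a5 had 1.23 ± 0.30 (SE) in WT and 0.97 ± 0.33 in KO mice, and Bsg 0.19 ± 0.07 and 0.15 ± 0.07. The other 7 besides Slc52a3 lay between -0.12 (Mfsd2a) and 0.24 (Slco1a4, an organic anion carrier) in WT mice and between -0.04 (Abcg2) and 0.21 (Slc2a1) in KO mice. The efflux pump gene Abcb1a had 0.16 and 0.19, the thyroid hormone carrier gene Slco1c1 0.00 and 0.10, and Slc7a5 0.04 and 0.03. Abcb1a and Ly6c1 each have a closely related neighbouring gene, and how reads shared by such genes were counted is not given in the sources used here.

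All 8 receptors and receptor partners had positive changes in both genotypes, none past the threshold. Behind Eng, the angiopoietin receptor gene Tek had 0.37 ± 0.14 (SE) in WT and 0.30 ± 0.15 in KO mice, and Kdr 0.31 ± 0.22 and 0.57 ± 0.24. Flt1, another VEGF receptor, had 0.21 and 0.30, and Tie1, a relative of Tek, 0.10 and 0.14. Ptprb, a phosphatase that restrains Tek, had 0.23 and 0.21, Ramp2, the partner of the adrenomedullin receptor, 0.24 and 0.12, and Robo4 0.14 and 0.16.

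The surface and secreted proteins had the most members at an unadjusted p under 0.05 in WT mice, 5 of 6. Podxl had 0.56 ± 0.14 (SE) in WT and 0.34 ± 0.15 in KO mice. Its WT levels were 31.8 to 41.0 CPM in controls and 40.1 to 66.7 under stress, overlapping in 1 stress library. Ly6c1 had 0.55 ± 0.14 and 0.17 ± 0.15, Itm2a 0.26 ± 0.07 and 0.16 ± 0.08, the sialomucin gene Emcn 0.28 and 0.26, and the secreted factor gene Egfl7 0.27 and -0.03. Cd34, the sixth, had 0.04 and -0.25. Of the transcription factors Sox17 had 0.34 ± 0.11 and 0.19 ± 0.12, and Erg, Sox7, Sox18 and Foxq1 lay between 0.03 and 0.17 in WT and between 0.03 and 0.24 in KO mice. Among the enzymes, Acer2 had 1.02 ± 0.23 and 0.88 ± 0.25, Tgm2 0.75 ± 0.16 and 0.55 ± 0.18, the endothelial nitric oxide synthase gene Nos3 0.14 and 0.15, and Car4 -0.15 and -0.10.

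**Figure D2:**
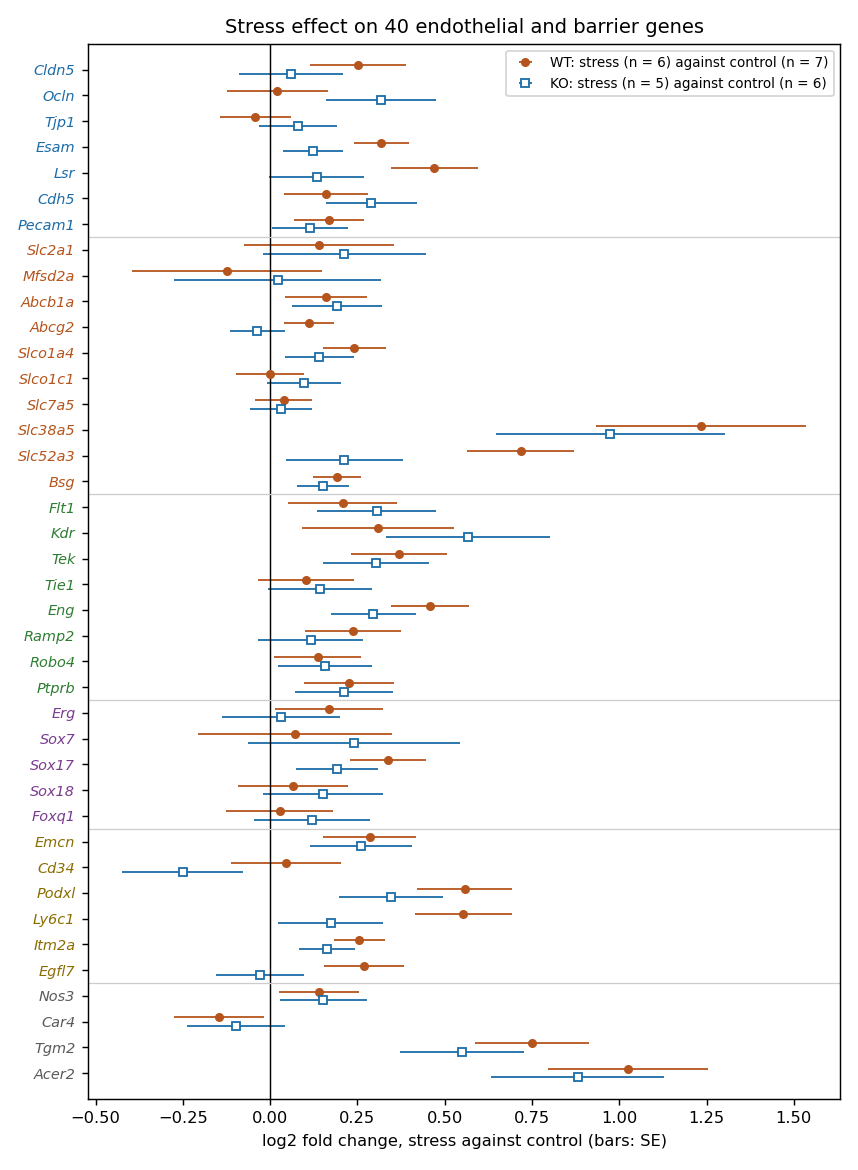
Log2 fold change of stress against control for each of the 40 genes in WT (6 against 7 libraries) and KO mice (5 against 6 libraries), with bars of 1 SE. Genes are set in blocks by role, from junction genes at the top to enzymes at the bottom. Most points of both genotypes lie right of 0, with Slc38a5 and Acer2 farthest, and no point passed the threshold within a genotype.

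Several of these KO values moved by more than 1.5 times with 1 library. Without KO stress replicate 5 the KO effect was 0.56 for Acer2, 0.36 for Tgm2 and 0.13 for Podxl. Without KO stress replicate 4 it was 0.045 for Sox17 and 0.039 for Lsr. Without KO control replicate 2 it was 0.059 for Esam, and without KO control replicate 6 it was 0.11 for Ly6c1.

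In KO mice no member passed, with all adjusted p at 0.988 or above, and only 1 gene did over the whole table (0.00613%). In KO mice 7 members met an unadjusted p under 0.05, beside 3.97% of all genes, and 36 of 40 lay above 0 with a median of 0.15 (all genes: 0.01). The difference between the genotypes was itself tested. No member and no gene (0%) passed for the interaction, which subtracts the change in WT mice from that in KO mice. Only 1 member, Slc52a3, met an unadjusted p under 0.05, at -0.51 ± 0.23 (SE), beside 2.35% of all genes. The other members lay between -0.38 (Ly6c1) and 0.30 (Ocln), with SEs from 0.10 to 0.45, so differences in either direction of the size of the WT effects lie within the error for many of them.

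Genotype alone parted the members little. Between KO and WT controls, no member passed (0% of all genes) and none met an unadjusted p under 0.05, beside 3.02% of all genes. Values ran from -0.19 ± 0.28 (SE) for Sox7 to 0.29 ± 0.16 for Slc52a3. Under stress again none passed, with 0% over all genes, and 2 members met the unadjusted mark beside 4.71% of all genes: Lsr at -0.29 ± 0.14 and Egfl7 at -0.28 ± 0.13, both with an adjusted p of 0.798. By DESeq2 and limma voom as well, 0 members passed in KO mice, for the interaction and between the genotypes.

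Library class was associated with more of these genes than stress or genotype. With the 4 group means in the same fit, 13 of the 40 members were higher in class 2 and 3 were lower. Over all genes 20.8% passed, 11.2% higher and 9.56% lower, so the share of members called, 16 of 40, is to be read against that background. The median over the 40 was 0.15 and that over all genes 0.00. All 8 listed markers of hippocampal neurons were also higher in class 2, with a median of 1.18, and 3 of 12 thalamic and habenular markers were lower. The part of dissection in these differences was not tested.

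Mfsd2a and Slc2a1, both transporters that deliver nutrients to the brain, were lower in class 2. Mfsd2a was at 31.1 to 51.8 CPM in class 1 and 17.8 to 35.7 in class 2, with means of 41.7 ± 6.71 (SD, n = 11) and 23.9 ± 5.13 (SD, n = 13). The log2 difference was -0.87 ± 0.10 (SE), with an adjusted p of 3.65e-06. In class 2 only WT stress replicate 6 (35.7) and KO stress replicate 5 (33.1) reached the class 1 range. Slc2a1 was at 206 ± 23.8 CPM (SD, n = 11) and 145 ± 38.8 (SD, n = 13), a difference of -0.62 ± 0.11 (SE) with an adjusted p of 0.000236. For Slc2a1 the classes lay apart among controls and overlapped among stress libraries, as given below. Ly6c1 was the third lower gene, at -0.27 ± 0.09.

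Slc38a5, also a transporter, went the other way, at 3.92 ± 1.57 CPM (SD, n = 11) in class 1 and 8.36 ± 3.32 (SD, n = 13) in class 2. Its log2 difference was 0.94 ± 0.14 (SE), with an adjusted p of 4.64e-05. The carriers Slco1c1 (0.28 ± 0.05) and Slco1a4 (0.22 ± 0.05) were higher as well. The receptor genes that were higher in class 2 were Kdr (0.60 ± 0.11), Tek (0.32 ± 0.09), Eng (0.31 ± 0.06) and Tie1 (0.30 ± 0.09). So were the transcription factor genes Sox7 (0.60 ± 0.18) and Foxq1 (0.35 ± 0.09), the surface genes Podxl (0.29), Emcn (0.27) and Itm2a (0.17), and Cldn5 (0.27). Emcn lost its call without replicate 5 of KO control or 1, 2 or 5 of WT control, its adjusted p reaching 0.0680. An antisense gene covers 66.1% of the exon bases of Foxq1, so its count is uncertain, and other genes overlap 33.4% of Ramp2, 25.2% of Nos3 and 16.9% of Sox17. None of the 4 enzymes passed, and the stress-raised Tgm2 (0.01) and Acer2 (-0.09) were near 0.

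**Figure D3:**
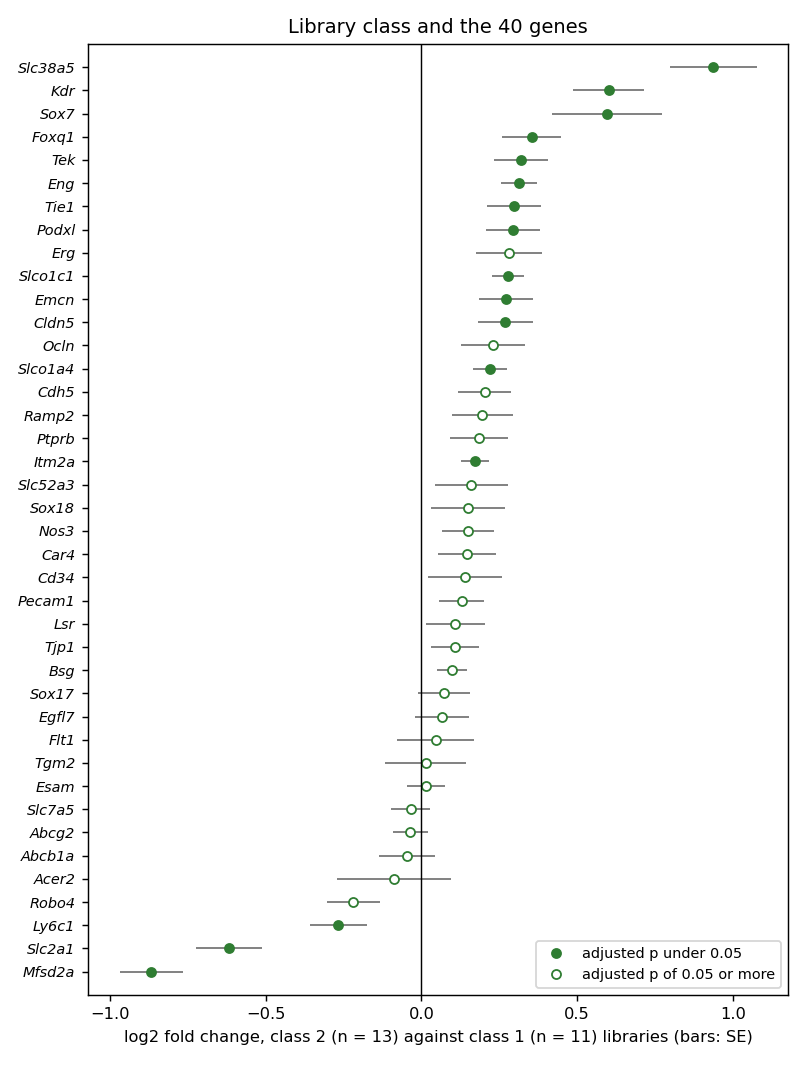
Log2 fold change of class 2 (13 libraries) against class 1 (11 libraries) for each of the 40 genes, with bars of 1 SE and the 16 genes past the threshold marked. Mfsd2a and Slc2a1 lie at the low end and Slc38a5 at the high end.

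**Figure D4:**
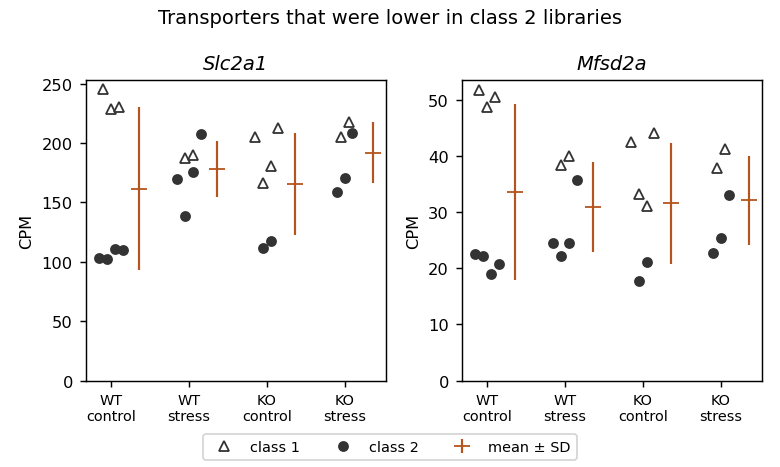
Level in CPM of Slc2a1 and Mfsd2a in each library by group, with class shown by the marker and the group mean ± SD by the bar. For Slc2a1 and Mfsd2a the WT controls form 2 separate sets by class, at 228 to 245 and 102 to 111 CPM for Slc2a1.

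The stress effect on Slc2a1 differed between the classes, in a comparison added after the data had been seen. In class 1, the 3 WT controls had 245, 228 and 230 CPM and the 2 WT stress libraries 187 and 190. In class 2, the 4 WT controls had 103, 102, 111 and 110 CPM and the 4 WT stress libraries 170, 138, 175 and 207. KO mice had 205, 166, 181 and 212 CPM in class 1 controls and 205 and 218 under stress, against 111 and 118 in class 2 controls and 159, 170 and 208 under stress. Within class 2 all stress libraries of either genotype thus exceeded all controls, and in class 1 they did not. The share of all genes that part in this way within class 2 was not counted. Class 1 alone gave an average stress effect of -0.09 (adjusted p 0.790) and class 2 alone 0.67 (0.00928).

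The difference of the 2 effects, class 2 minus class 1, was 0.78 ± 0.13 (SE) for Slc2a1, with an adjusted p of 0.0332. It was the only member among the 7 genes that passed (0.0429%). At an unadjusted p under 0.05 there were 14 of 40 members, beside 17% of all genes. Acer2 (1.01 ± 0.29), Tgm2 (0.77 ± 0.20), Flt1 (0.68 ± 0.20) and Mfsd2a (0.57 ± 0.17) had large values that did not pass, with adjusted p of 0.158 to 0.183. Slc2a1 stayed past the threshold when replicate 2, 3 or 6 of KO control, 2 or 4 of KO stress, or 3, 4 or 6 of WT stress was left out. Without any of the other 16 libraries it did not pass, at values from 0.73 and adjusted p up to 0.137. Without the 3 libraries rich in thalamic transcripts it was 0.76, with an adjusted p of 0.0885.

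**Figure D5:**
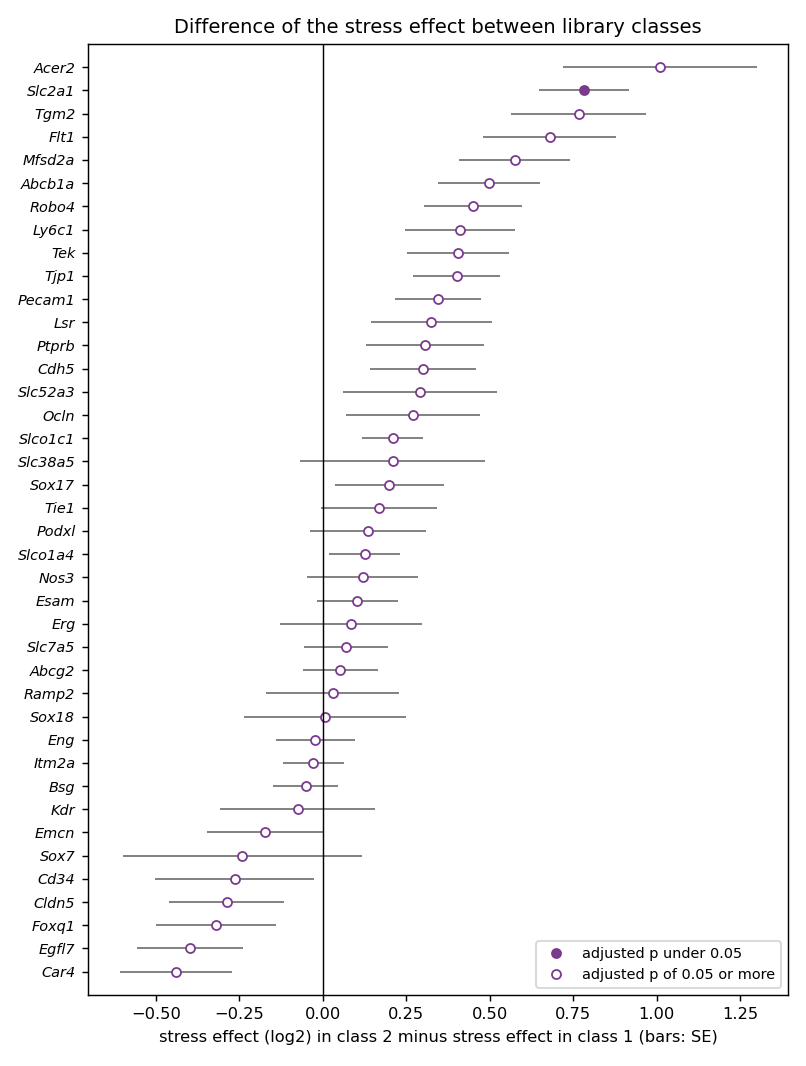
Difference of the average stress effect between library classes (class 2 minus class 1, log2) for each of the 40 genes, with bars of 1 SE. Slc2a1 alone passed the threshold, although Acer2 had the larger difference with a wider error.

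Other genes of the barrier, from lists not drawn from the 40, gave no call for stress on average. Of the Wnt and beta-catenin genes 0 of 17 tested passed, of further junction genes 0 of 13, of further endothelial transporters 0 of 17, of VEGF, angiopoietin and TGF-beta ligands and partners 0 of 20, of vesicle genes 0 of 6 and of basement membrane genes 0 of 11. Their median log2 fold changes ran from 0.01 to 0.17. At an unadjusted p under 0.05 they held 4, 2, 1, 7, 1 and 4 genes in that order, beside 6.17% of all genes. That share was exceeded in each list but the further transporters, where 1 of 17 met the mark. For the vesicle genes this rests on 1 gene of 6, and for the further junction genes on 2 of 13. Lef1, among the 4 Wnt genes, is also one of the listed thalamic and habenular markers. Arterial markers had 0 of 9.

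Of 11 tested markers of venous and activated endothelium 5 rose, beside 0.208% of all genes higher, and the median of the list was 0.82. They were Lcn2, a siderophore-binding protein (4.37 ± 0.54, SE), Lrg1, a secreted glycoprotein (1.51 ± 0.19), Vwf, the clotting factor carrier (1.21 ± 0.18), Ly6a (0.61 ± 0.11) and Slc38a5, which is also one of the 40. The remaining 6 did not pass: Plvap (-0.12), Ackr1 (0.12), Vcam1 (0.12), Nr2f2 (0.24), Icam1 (0.82) and Selp (2.26). The summed level of this list was 170 to 206 CPM in WT controls and 245 to 318 in WT stress libraries, without overlap. KO controls had 187 to 214 and KO stress libraries 210 to 325, with overlap. Slc38a5 counts in both lists, and enters the median and sums given here. The list was chosen with earlier results of these data known, so its count, median and sums are no independent support. Besides it, the members of the main list that rose were accompanied by Lcn2, Lrg1, Vwf and Ly6a. The part of venous or activated endothelium in the members' levels was not tested.

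Markers of neighbouring cells also moved. Over all genes, 0.208% were called higher for stress on average and 0.00613% lower. Of 5 red blood cell genes tested 3 rose, Alas2 (2.20 ± 0.21, SE), Hba-a2 (1.67 ± 0.22) and Slc4a1 (3.54 ± 0.54). The summed red cell level was 69.9 to 86.5 CPM in WT controls and 105 to 150 in WT stress. In KO mice it was 69.4 to 90.6 CPM without stress and 96.0 to 134 with it, and most of it came from Bpgm. Slc4a1 was at 0 in at least 1 library, as was Hba-a1, and Hbb-bt had no count in any. Of 14 pericyte and smooth muscle genes, Kcnj8, a potassium channel subunit of pericytes, rose (0.44 ± 0.09), and all 14 lay above 0 with a median of 0.19. Their sums overlapped between groups, at 208 to 278 CPM in WT controls and 231 to 317 in WT stress. None of 8 microglia markers passed, and 4 met an unadjusted p under 0.05 in WT mice, beside 4.41% of all genes. Among those 4, C1qa was at 0.45 ± 0.12, C1qb at 0.45 ± 0.11 and C1qc at 0.41 ± 0.11. The sum over the 8 microglia markers was 333 to 457 CPM in WT controls and 389 to 604 in WT stress. In KO mice it was 343 to 425 CPM in controls and 377 to 516 under stress. None of 10 choroid plexus markers passed either, and their sum ran from 66.0 to 2583 CPM in WT controls, from 23.5 to 2164 in WT stress, from 31.97 to 1892 in KO controls and from 803 to 2074 in KO stress. The part of these cells in the members' values was not tested. For comparison, the sum over the 40 members was 1748 to 1916 CPM in WT controls and 1948 to 2151 in WT stress. In the KO groups it was 1704 to 1917 CPM without stress and 1822 to 2169 with it. Bsg, which many cell types express, was the largest part of these sums, at a mean of 669 CPM.

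By library class the wider barrier lists held more calls than for stress. Over all genes 20.8% passed by class, 11.2% higher and 9.56% lower. There, 7 of the 17 Wnt genes were higher in class 2, among them Apcdd1 (0.35 ± 0.07, SE), the ligand gene Ndp (0.40 ± 0.08) and the ligand gene Wnt7b (0.42 ± 0.09). Likewise 8 of the 20 VEGF, angiopoietin and TGF-beta genes were higher, with the co-receptor gene Nrp1 at 0.68 ± 0.08. Of 17 further transporters 6 were higher and 4 lower, with the lactate carrier gene Slc16a1 at 0.40 ± 0.07. Of 13 further junction genes F11r was higher (0.37 ± 0.10) and Cgn (-0.50 ± 0.12), Magi1 (-0.40 ± 0.09) and Cldn12 (-0.26 ± 0.08) were lower. Of 6 vesicle genes Cav1, the caveolar coat gene, was higher (0.45 ± 0.07) and Ehd4 was lower. Of 11 basement membrane genes 2 were higher. These genes are not restricted to endothelium, and neural cells express several of them.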

How the data were processed

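The authors deposited whole-number, unnormalized read counts per gene symbol for 24 libraries. The tools named in the submitters' processing notes are STAR and DESeq2, and the build is mm10, without versions. Which program counted the reads, on which annotation and with what use of strand is not given in the sources used here. Of the counts from 1 to 10 in a library, 70.9% to 75.8% were even, as when the mates of a pair are counted separately. Both further deposited tables, of normalized counts and of the authors' own comparison, were not used.

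Groups and replicate numbers come from the sample titles. Genes were tested with the edgeR quasi-likelihood F test (version 4.0.16, robust fit, TMM scaling, filterByExpr with a minimum count of 10) in 1 fit of 4 group means, with Benjamini-Hochberg adjustment over the 16313 tested genes and a threshold of 0.05. The SE was derived from the log2 fold change and its F statistic and is approximate. The fit had 20 residual degrees of freedom and a biological coefficient of variation of 0.219. Library class was split at 15000 CPM of Rn45s. All pairs of libraries differed by more than sampling noise (smallest mean chi-square per gene 5.64). The test was checked on simulated counts. Level per length used the exon union of GENCODE gene models on GRCm38, the assembly of mm10, and promoters came from RefSeq.

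The members, the other lists and the comparisons were chosen with earlier results of these data known. All 40 members are named, with statistics for those past the threshold, for the 12 of smallest p in WT mice with the same in KO mice, and for up to 12 by library class. Others are given as values that did not pass. Alternatives were RLE factors, DESeq2 (1.42.0), limma voom (3.58.1), 2 other filters, only the groups compared, class as a term or each class alone, a replicate block, leaving out 3 libraries, and leaving out each library in turn.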

Additional observations from a re-analysis of the deposited data

Results flagged for a closer look

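Among the 12 members of smallest p in WT mice, 48 sets of values (a gene in a group) were checked for 1 library far from the others, which chance gives in about 1 in 20 sets. Esam in KO stress replicate 1 was low, at 17.7 CPM with the next library at 21.6. Lsr in WT control replicate 6 was high, at 15.6 CPM with the next at 12.9. Sox17 in KO stress replicate 4 was high, at 15.2 CPM with the next at 10.6. The stress effect on Slc2a1 differed between library classes by 0.78 on the log2 scale (class 2 minus class 1), past the threshold by edgeR with an adjusted p of 0.0332.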

How the results depend on the processing

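For the stress effect in WT mice, where no member passed, 8 passed by DESeq2, 2 by limma voom, 3 with library class as a term and 3 in class 2 alone. Leaving out each library in turn gave 0 to 3. For the average stress effect, with 3 members, the number was 6 by DESeq2, 5 with class as a term, 7 in class 2 alone, 0 in class 1 alone and 1 without the 3 libraries rich in thalamic transcripts, and 2 to 5 when each library was left out. Class 1 alone holds 4 stress and 7 control libraries. For library class, with 16 members, leaving out each library gave 13 to 18. For the stress effect by class, with 1 member, the number was 2 by DESeq2, 0 without the 3 thalamic libraries and 0 to 1 when each library was left out. No member passed in any alternative for the stress effect in KO mice, the interaction or either comparison of genotypes. In class 1 alone the KO stress effect changed sign for Slc52a3 (-0.19), Lsr (-0.11) and Sox17 (-0.029). Over all genes, DESeq2 called 57 higher and 2 lower for stress in WT mice (edgeR 22), 7 in KO mice (1) and 69 higher and 5 lower for the average (35). The causes of these changes were not tested. RLE scaling and both other filters left each of these counts of members within 1.5 times.

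With the replicate number as a block, 3 members passed for stress in WT mice (Slc38a5, Eng and Podxl), 4 for the average and 1 for library class (Mfsd2a). Over 33 same-numbered pairs the correlation of deviations ran from -0.43 to 0.49 (median 0.117), with 18 over 0.1. Over 182 differently numbered pairs the median was -0.075, with 64 over 0.1, and 3 of 24 libraries correlated best with their own number. Class 1 libraries are those of low number, so the block and library class overlap in what they fit. Library class also enters these correlations, which therefore do not settle whether the numbers pair the samples.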
